A study of Mus musculus with 9 samples.

Results

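The genes described here are 9 chemokine genes and the osteopontin gene Spp1, taken by name from the 24296 genes of a Seq-Well single-cell data set of the mouse knee joint. The 10 genes were Ccl2, Ccl7, Ccl3, Ccl4, Ccl6, Ccl9, Cxcl2, Pf4, Cxcl12 and Spp1, and all 10 had counts in the file. In Seq-Well, cells settle one by one in tiny wells, each with a bead whose barcode tags the polyadenylated RNA of its cell. The 9 mice were 129/Sve females, 8 weeks old, and the whole left knee joint was taken 1 week after an injection into it. The 5 sick mice, numbered 1, 3, 4, 5 and 6, had been sensitized to methylated bovine serum albumin (mBSA) and then received mBSA in the joint, which gives an antigen-induced arthritis. The 4 healthy mice, numbered 1 to 4, received phosphate-buffered saline. The labels do not say whether the healthy mice had been sensitized.

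Chemokines are small secreted proteins that bind heptahelical receptors on leukocytes and steer the cells along a gradient. CC chemokines mainly attract monocytes, lymphocytes, eosinophils and basophils, and CXC chemokines such as Cxcl2 attract neutrophils, the cell type that fills an acutely inflamed joint. Cxcl12 is different in kind, since stromal cells of the bone marrow make it steadily and it holds blood progenitors there. Spp1 is no chemokine but a secreted phosphoprotein of bone matrix and of activated macrophages, which binds integrins and CD44.

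After the cell filter 16749 of 16751 cells remained, with 896930 to 4675909 counts per mouse. Cells were placed in 18 types by 10 marker genes each, none of them among the 10 genes described, and 10201 cells (60.9%) received a type. The joints held marrow and blood cells above all: the largest gates were neutrophils (5822 cells), erythroid cells (1935) and monocytes (622). The 10 genes that led the neutrophil gate by fold included its own markers Ltf, Ngp and Camp, which lead because they chose its cells. S100a8, S100a9, Chil3 and Anxa1, which are not its markers, were also among them. Those of the macrophage gate were likewise markers such as C1qb, C1qc and Apoe, beside Retnla, Cxcl13, Ccl7, Ccl8 and H2-Eb1. Macrophages (51 cells), fibroblasts (108 cells) and osteoblasts (29 cells) were few, and sick mouse 3 alone gave 27 of the macrophages and 69 of the fibroblasts. Healthy mice 2, 3 and 4 stood apart from the other libraries. Of their cells 65.0%, 69.3% and 73.3% passed for no type, against 22.9% in healthy mouse 1 and 22.2% to 35.2% in sick mice. Mixed cells, which passed for more than 1 type and also received none, are not in these shares. Their counts were 35.3% to 39.7% haemoglobin, against 17.6% in healthy mouse 1 and 10.2% to 27.9% in sick mice. The labels give no batch for a mouse, so a batch that followed the groups cannot be told apart from them. A total of 8 cell barcodes occurred in 2 libraries.

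In the GENCODE M21 annotation of the GRCm38 build the CC chemokine genes lie in 2 groups on chromosome 11. Ccl2 (chr11:82035571-82037453) and Ccl7 (chr11:82045712-82047525) are neighbours on the plus strand. Ccl9 (chr11:83572919-83578636), Ccl6 (chr11:83587882-83593087) and Ccl3 (chr11:83647844-83649355) lie on the minus strand, followed by Ccl4 (chr11:83662584-83664683) on the plus strand. Pf4 (chr5:90772435-90773383), Cxcl2 (chr5:90903871-90905938) and Spp1 (chr5:104435118-104441050) lie on the plus strand of chromosome 5, and Cxcl12 (chr6:117168535-117181367) on that of chromosome 6.

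RefSeq promoter windows (GRCm38.p6, 250 bases before to 50 after the annotated start) matched 7 of the 10 genes, and Ccl2, Ccl7 and Ccl4 had no entry in the table. The windows were searched on both strands for GGG, any 3 bases and TTCC (NF-kB-like), for TGANTCA (AP-1-like) and for GAAA, any 2 bases and GAAA (interferon response element-like). Those of Cxcl2, Ccl9 and Spp1 are printed because they held a match, which stands in capitals, while Ccl3, Ccl6, Pf4 and Cxcl12 held none of these letters. The Cxcl2 window (chr5:90903649-90903948, plus strand) held NF-kB-like matches that begin 97 and 78 bases before the start. The first of them, on the plus strand, overlaps a match on the minus strand that begins 96 bases before the start. The Ccl9 window (chr11:83578587-83578886, minus strand) held an AP-1-like match 53 bases and an NF-kB-like match 35 bases before the start. The first of 2 Spp1 windows (chr5:104434861-104435160, plus strand) held an interferon response element-like match 157 bases before the start.
Cxcl2: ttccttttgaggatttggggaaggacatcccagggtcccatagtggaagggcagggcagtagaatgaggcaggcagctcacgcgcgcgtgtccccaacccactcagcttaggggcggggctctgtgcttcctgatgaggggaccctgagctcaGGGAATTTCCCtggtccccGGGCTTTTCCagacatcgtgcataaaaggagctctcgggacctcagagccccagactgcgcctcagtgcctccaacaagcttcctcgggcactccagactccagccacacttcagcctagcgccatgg
Ccl9: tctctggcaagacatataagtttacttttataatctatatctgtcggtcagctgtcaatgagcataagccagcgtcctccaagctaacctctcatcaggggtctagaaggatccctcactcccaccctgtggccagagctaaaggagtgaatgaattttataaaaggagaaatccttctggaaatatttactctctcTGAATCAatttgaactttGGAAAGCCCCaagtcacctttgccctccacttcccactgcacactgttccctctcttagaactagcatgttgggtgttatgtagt
Spp1: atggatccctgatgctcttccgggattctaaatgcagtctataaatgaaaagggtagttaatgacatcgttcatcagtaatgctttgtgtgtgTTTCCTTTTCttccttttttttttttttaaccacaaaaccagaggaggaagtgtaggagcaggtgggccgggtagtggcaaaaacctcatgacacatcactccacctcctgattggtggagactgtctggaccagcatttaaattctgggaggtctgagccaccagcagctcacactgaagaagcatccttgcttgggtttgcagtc
Of 32851 RefSeq promoter windows of the same length, 5.56% held an NF-kB-like match, 7.81% an AP-1-like match and 3.44% an interferon response element-like match. A match is a run of letters and not a measured binding site.

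The first question was which cell types carried each transcript. The share of cells with at least 1 count separated the genes into groups with different leading types. Macrophages had the highest share for Ccl2, Ccl7, Ccl6, Cxcl2 and Pf4 among gates of at least 20 cells, monocytes for Ccl9, mast cells or basophils for Ccl3 and Ccl4, fibroblasts for Cxcl12 and osteoblasts for Spp1. This order depends on how cells were gated. With the rule first written down, at least 3 distinct markers, the leading gate stayed for Ccl3, Ccl4, Ccl9 and Cxcl12 only. Monocytes then led Ccl2 (20.0%) and Ccl6 (28.4%), fibroblasts led Ccl7 (21.6%) and Spp1 (16.2%), mast cells or basophils led Cxcl2 (16.7%), and granulocyte progenitors led Pf4 (1.93%). Gates of at least 2 markers gave the same leading types. Free RNA in the wells gives counts in cells that do not express a gene. The erythroid gate (median depth 1277 counts per cell) and the B-lineage gate (878) serve as a stand-in for it and are called the background. Doublets, misplaced cells or these cells' own transcripts would count there too, and their part was not tested. Shares are given with exact binomial 95% intervals, which cover counting error only.

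**Figure D1:**
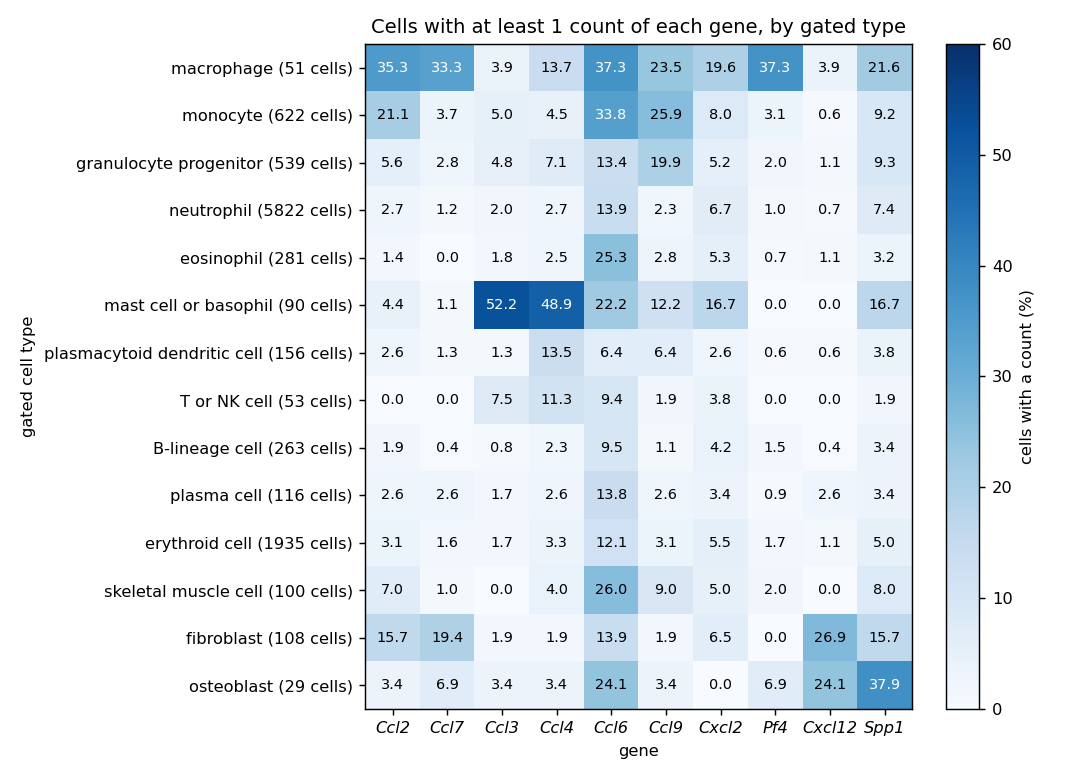
Percent of cells with at least 1 count of each of the 10 genes (columns) in each gated type of at least 20 cells (rows, with the number of cells), all 9 mice pooled. The darkest cells are Ccl3 (52.2%) and Ccl4 (48.9%) in the mast cell or basophil gate, and the macrophage row is above 19% for 7 genes, all but Ccl3, Ccl4 and Cxcl12.

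Ccl2 and Ccl7 encode ligands of the monocyte receptor CCR2. Of 51 macrophages, 35.3% (interval 22.4% to 49.9%) had a Ccl2 count, as did 21.1% (17.9% to 24.5%) of monocytes and 15.7% of fibroblasts. The background was 3.10% in erythroid and 1.90% in B-lineage cells, and neutrophils stood at 2.73%, between these gates. Ccl7 was found in 33.3% (20.8% to 47.9%) of macrophages, 19.4% (12.5% to 28.2%) of fibroblasts and 3.70% of monocytes, against 1.55% of erythroid and 0.380% of B-lineage cells. Monocytes thus carried Ccl2 far more often than Ccl7, while macrophages and fibroblasts carried both. Within macrophages 13 cells had both transcripts, of 18 with Ccl2 and 17 with Ccl7. Within fibroblasts 12 had both, of 17 with Ccl2 and 21 with Ccl7. Without sick mouse 3 the macrophage share was 29.2% for Ccl2 (7 of 24 cells) and 16.7% for Ccl7 (4 of 24), and macrophages still led both. Sick mouse 3 also gave 17 of the 21 fibroblasts and 17 of the 23 monocytes with Ccl7, so these pooled shares rest largely on 1 mouse.

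Ccl3 and Ccl4 encode CC chemokines known as macrophage inflammatory proteins. They marked the mast cell or basophil gate, whose leading genes Mcpt8 and Prss34 are basophil proteases and are among the markers that defined it. Ccl3 was found in 47 of its 90 cells (52.2%, interval 41.4% to 62.9%) and Ccl4 in 44 (48.9%, 38.2% to 59.7%), and 32 cells had both. The next gates were T or NK cells for Ccl3 (7.55%) and macrophages for Ccl4 (13.7%), followed by plasmacytoid dendritic cells (13.5%). The erythroid background was 1.65% for Ccl3 and 3.31% for Ccl4, and the shallower neutrophils (median 828 against 1277 counts) had 2.03% and 2.71%. In sick mice mean Ccl3 levels were 21.3 CPM in neutrophils and 10.6 CPM in erythroid cells, and those of Ccl4 36.8 and 34.7 CPM. In healthy mice they were 8.21 and 8.40 CPM for Ccl3, and 11.8 and 5.26 CPM for Ccl4. The gate made up 90 of 16749 cells but held 20.9% of all Ccl3 counts and 19.7% of all Ccl4 counts. Both groups of mice carried the transcripts in this gate: Ccl3 in 6 of 14 healthy and 41 of 76 sick cells, Ccl4 in 6 of 14 and 38 of 76. Of the 76 sick cells 31 came from sick mouse 3, and the groups were not tested over these cells.

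Ccl6 and Ccl9 encode mouse CC chemokines that bind CCR1. Ccl6 was spread over the myeloid gates, with 37.3% (24.1% to 51.9%) of macrophages, 33.8% (30.0% to 37.6%) of monocytes, 25.3% (20.3% to 30.8%) of eosinophils and 22.2% of mast cells or basophils. Its background was high, at 12.1% of erythroid and 9.51% of B-lineage cells. The neutrophil share was 13.9%, in cells shallower than erythroid cells (median 828 against 1277 counts). In healthy mice mean Ccl6 levels were 188 CPM (SD 151) in neutrophils and 94.2 CPM (SD 76.8) in erythroid cells. In sick mice they were 193 CPM (SD 36.2) and 120 CPM (SD 17.1). Ccl9 was found in 25.9% (22.5% to 29.5%) of monocytes, 23.5% (12.8% to 37.5%) of macrophages and 19.9% (16.6% to 23.5%) of granulocyte progenitors, the Mpo- and Elane-positive precursors of neutrophils. Neutrophils were at 2.25% for Ccl9, between the 1.14% of B-lineage and the 3.10% of erythroid cells. Cells were also thinned to 400 counts each to set depth equal (1 shallower cell left out), since granulocyte progenitors were deep (median 1729 counts). The order of macrophages (11.8%) and monocytes (9.81%) for Ccl9 then turned, with granulocyte progenitors at 5.38%, erythroid cells at 0.930%, neutrophils at 0.842% and B-lineage cells at 0.760%.

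Cxcl2 encodes a ligand of the neutrophil receptor CXCR2. Macrophages (19.6%, interval 9.82% to 33.1%) and mast cells or basophils (16.7%, 9.64% to 26.0%) had the highest shares, followed by monocytes at 8.04%. Neutrophils held 35.8% of all Cxcl2 counts, but their share of cells with a count was 6.73% (6.10% to 7.41%), against 5.48% (4.51% to 6.59%) of the deeper erythroid cells. Thinned to equal depth, the shares were 3.35% and 1.91%. Without sick mouse 3 mast cells or basophils led with 20.3% and macrophages followed with 16.7%.

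Pf4 encodes platelet factor 4, which megakaryocytes store for platelets. All 8 cells of the megakaryocyte or platelet gate had Pf4 counts (100%, interval 63.1% to 100%), and these 8 cells held 42.3% of all Pf4 counts. Macrophages followed with 37.3% (24.1% to 51.9%), and monocytes stood at 3.05% against 1.65% of erythroid cells. Of the 19 macrophages with Pf4, 14 came from sick mouse 3, and without this mouse the macrophage share was 20.8%.

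Cxcl12 was found in stromal and bone-lining types: 4 of 5 marrow stromal cells, 26.9% (18.8% to 36.2%) of fibroblasts and 24.1% (10.3% to 43.5%) of osteoblasts. The erythroid background was 1.14% and neutrophils stood at 0.670%. The fibroblast value rested on sick mouse 3, which gave 28 of the 29 positive fibroblasts. The other mice had Cxcl12 in 1 of 39 fibroblasts, and without sick mouse 3 osteoblasts led with 26.1%. Spp1 was found in 37.9% (20.7% to 57.7%) of osteoblasts, 21.6% (11.3% to 35.3%) of macrophages, 16.7% of mast cells or basophils and 15.7% of fibroblasts. Of 13 osteoclasts, 10 of them from healthy mice, 2 had a Spp1 count, and 26 of the 27 counts lay in 1 cell of sick mouse 3. All 11 positive osteoblasts were among the 22 from sick mice. Only 7 osteoblasts came from healthy mice, 5 of them from healthy mouse 3, and the groups were not tested over these cells. Neutrophils had Spp1 in 7.42% (6.76% to 8.12%) of cells and held 34.3% of its counts, against 4.96% of erythroid and 3.42% of B-lineage cells.

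**Figure D2:**
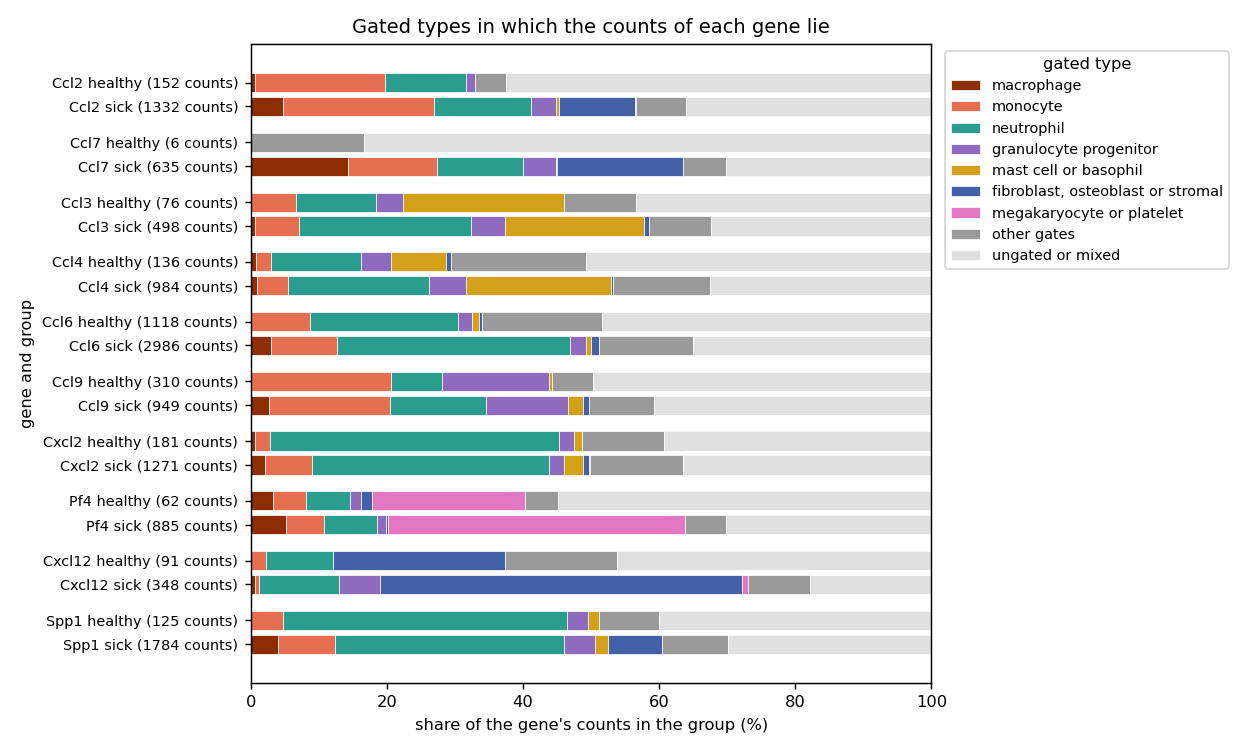
Share of each gene's counts (x axis, percent) that lay in each gated type, for healthy and sick mice, with the total counts of the gene beside each bar. In sick mice the megakaryocyte or platelet gate held 43.7% of Pf4, the fibroblast, osteoblast and stromal gates 53.2% of Cxcl12, and the mast cell or basophil gate 20.5% of Ccl3 and 21.3% of Ccl4.

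Levels per gate were compared across the 13 gates of at least 50 cells, which leave out osteoblasts, on the log2(CPM + 10) scale. Ccl2 and Ccl7 had a Pearson correlation of 0.95, Ccl2 and Spp1 of 0.90, Ccl3 and Ccl4 of 0.86 and Ccl7 and Spp1 of 0.85. Genes with the same leading gate were not always alike: among those led by macrophages the correlation was 0.44 for Ccl7 and Cxcl2, 0.50 for Ccl7 and Ccl6, and 0.54 for Ccl2 and Pf4. The lowest value was -0.47, for Ccl4 and Cxcl12. These values describe gates that share libraries and free RNA. By the same measure the genes most like Ccl2 were the endocytic receptor gene Lrp1 (0.96), Pdpn (0.94) and Ctsl (0.94), and those most like Ccl7 were Tppp3 (0.96), Lrp1 (0.96) and Pdpn (0.95). Pf4 was most like Aif1 (0.96), a macrophage gene, Cd300c2 (0.96) and the haem oxygenase gene Hmox1 (0.94). Ccl6 was most like the Fc receptor gene Fcgr3 (0.90), Gsdmd (0.88) and Arl4c (0.87), and Cxcl2 like the cytokine gene Osm (0.87), Sgpl1 (0.83) and Arl8a (0.83). Ccl3 was most like Snapc1 (0.87), the NF-kB regulator gene Nfkbiz (0.83) and Plk3 (0.81), and Ccl4 like Lat2 (0.87), Dnaja1 (0.85) and Rgs1 (0.84). Ccl9 was most like Rnh1 (0.84), Zbtb11 (0.83) and Cdipt (0.83). Cxcl12 was most like the matrix genes Fstl1 (0.93) and Igfbp5 (0.90) and the osteocalcin-related gene Bglap3 (0.92), and Spp1 like Emc2 (0.93), Trps1 (0.92) and Saa3 (0.90).

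The second question was whether the level of each gene in the joint differed between sick and healthy mice. The counts of a mouse's kept cells were added up and tested with edgeR's quasi-likelihood test. Levels are CPM, counts scaled to a common library size with edgeR's TMM factors, and differences are log2 folds of sick over healthy with their SE, and p-values are adjusted by Benjamini-Hochberg over the 10323 genes tested. In such sums fewer cells of a type and less RNA per cell cannot be told apart. All 10 genes passed the filter on low counts. Only Ccl7 passed the threshold, as higher, and none as lower. Of all genes tested 0.639% passed as higher and 0.3% as lower. At an unadjusted p under 0.05, 7 of the 10 were higher, beside 7.43% of all genes. The median log2 fold of the 10 was 1.13, against -0.02 over all genes tested. Without healthy mice 2, 3 and 4, which stood apart, it was 0.39, against 0.03 over all genes tested.

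**Figure D3:**
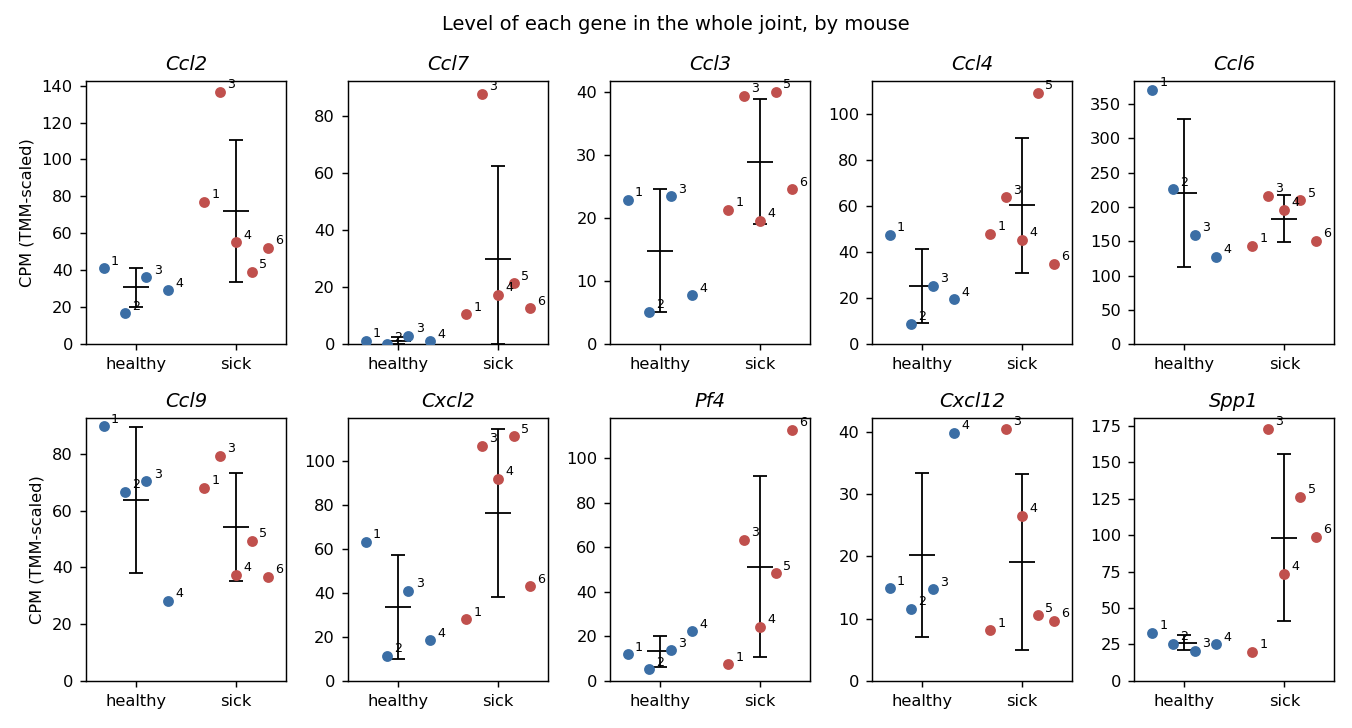
TMM-scaled CPM (y axis, linear, from 0) of each gene in the whole joint of each mouse. Points are mice with their numbers, horizontal marks are group means and bars are SD. Ccl7 is the only panel in which the groups do not overlap, and sick mouse 3 is its highest point at 87.7 CPM.

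Ccl7 rose in the arthritic joints. Its counts were 2, 0, 3 and 1 in healthy mice 1 to 4, and 31, 475, 30, 61 and 38 in sick mice 1, 3, 4, 5 and 6. As levels these were 1.14, 0, 2.93 and 0.972 CPM against 10.5, 87.7, 17.3, 21.4 and 12.6 CPM. Every sick mouse lay above every healthy mouse, which held for 2.85% of all genes tested and for no other of the 10. Group means were 1.26 ± 1.22 CPM (SD, n = 4) and 29.9 ± 32.6 CPM (SD, n = 5), a log2 fold of 4.51 ± 0.92 (adjusted p = 0.0260, edgeR). The call was lost without any single healthy mouse: leaving out mouse 1, 2, 3 or 4 gave adjusted p-values of 0.0556, 0.113, 0.0580 and 0.104, with folds of 4.25 to 5.14. It passed without any single sick mouse, sick mouse 3 included (log2 fold 3.48, adjusted p = 0.00546). Without healthy mice 2, 3 and 4 together the fold was 4.74 (adjusted p = 0.746), with the lone healthy mouse assumed to vary like the sick mice.

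The Ccl7 counts of sick mice lay in different cells from mouse to mouse. In sick mouse 3 they were found in 13 of 27 macrophages, 17 of 69 fibroblasts and 17 of 136 monocytes, and also in 51 of 1508 neutrophils and 24 of 490 erythroid cells. The last value, a background share, was above that of the other sick mice, where 0 of 222, 1 of 183, 1 of 331 and 3 of 405 erythroid cells had a Ccl7 count. In sick mouse 4 a single monocyte held 15 of the 30 counts, in sick mouse 5 a macrophage held 17 of 61, in sick mouse 6 a fibroblast 14 of 38 and in sick mouse 1 a macrophage 10 of 31. None of the 141 healthy monocytes had a Ccl7 count (exact interval 0% to 2.58%), and none of the 5 healthy macrophages or 7 healthy fibroblasts had one. Macrophage markers summed to 120 to 165 CPM in healthy and 95.2 to 387 CPM in sick mice, and their median log2 fold over 5 tested was 0.43. Of these Vcam1, which was also among the 10 leading genes of the eosinophil gate, passed as lower (-0.85), while C1qb was higher at an unadjusted p under 0.05 (1.78, adjusted p = 0.223). Fibroblast markers summed to 68.0 to 840 CPM and 230 to 1322 CPM, with 0 of 5 tested called, 3 higher at an unadjusted p under 0.05 and a median log2 fold of 1.72. Without the cells of these 2 gates the Ccl7 fold was 4.03 (adjusted p = 0.0585).

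Ccl2 levels were 41.1, 16.7, 36.2 and 29.1 CPM in healthy mice and 76.9, 136, 55.2, 39.3 and 52.1 CPM in sick mice. In 4 of 5 sick mice the level was above all healthy mice, and sick mouse 5 lay within their range. The log2 fold was 1.20 ± 0.34 (adjusted p = 0.123), so Ccl2 did not pass. It passed under 4 of 19 alternatives, among them DESeq2 (adjusted p = 0.0399), no filter on low counts (0.0154) and gated cells only (0.0481). With 1 mouse left out it passed in 0 of 9 fits, with folds down to 0.81 and adjusted p-values up to 0.315.

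Spp1 levels were 33.1, 25.6, 20.5 and 25.3 CPM in healthy mice. In sick mice 1, 3, 4, 5 and 6 they were 19.9, 173, 73.7, 127 and 99.1 CPM. Sick mouse 1 lay below every healthy mouse and the other 4 above them all. The log2 fold of 1.90 ± 0.45 missed the threshold (adjusted p = 0.0625). Spp1 passed under 3 of 19 alternatives: without sick mouse 1 (2.15, adjusted p = 0.00055), with DESeq2 (adjusted p = 0.0305) and without a filter on low counts. With other mice left out its adjusted p ran up to 0.185.

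Pf4 levels were 12.0, 5.13, 13.7 and 22.3 CPM in healthy mice and 7.42, 63.3, 24.2, 48.4 and 113 CPM in sick mice, with sick mouse 1 again in the healthy range. The log2 fold was 1.94 ± 0.61 (adjusted p = 0.163). The highest value came from few cells: in sick mouse 6 a single cell of the megakaryocyte or platelet gate held 161 of 340 counts. Of the 8 cells in this gate 7 came from sick mice, and without them the fold was 1.33 (adjusted p = 0.284). Pf4 passed under 2 of 19 alternatives, without sick mouse 1 (adjusted p = 0.0223) and without a filter on low counts. With other mice left out its adjusted p ran up to 0.350.

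Ccl3, Ccl4 and Cxcl2 had higher means in sick mice with groups that overlapped. Ccl4 levels were 47.4, 8.97, 25.4 and 19.4 CPM in healthy and 47.9, 63.9, 45.5, 109 and 34.8 CPM in sick mice, with a log2 fold of 1.16 ± 0.38 (adjusted p = 0.180). Healthy mouse 1 was the high one of its group, and without it Ccl4 passed (1.71, adjusted p = 0.0396). Ccl4 passed under 2 of 19 alternatives, the other being no filter on low counts. Ccl3 levels were 22.9, 5.13, 23.5 and 7.77 CPM and 21.3, 39.3, 19.6, 40.0 and 24.5 CPM, a log2 fold of 0.90 ± 0.37 (adjusted p = 0.292). For Cxcl2 the values were 63.4, 11.5, 41.1 and 18.5 CPM and 28.0, 107, 92.1, 111 and 43.1 CPM, a log2 fold of 1.10 ± 0.44 (adjusted p = 0.286). Sick mice 1 and 6 lay within the healthy range of Cxcl2. Markers of mast cells or basophils, the gate that led Ccl3 and Ccl4, summed to 110 to 422 CPM in healthy and 259 to 570 CPM in sick mice, with a median log2 fold of 0.14 over 7 tested. Of these Hdc, the histidine decarboxylase gene, passed as higher (1.09), and its fold in neutrophils was 0.63 (adjusted p = 0.383). The fold was 0.77 for Mcpt8 and -0.55 for Fcer1a, neither of which passed. The part of this gate in the 2 genes' levels was not tested.

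The other 3 genes had log2 folds near 0. Ccl6 levels were 370, 226, 159 and 127 CPM in healthy mice and 143, 216, 196, 209 and 151 CPM in sick mice (log2 fold -0.28 ± 0.25, adjusted p = 0.660). Healthy mouse 1 was the highest of all 9 mice, and without it the fold was 0.10. Ccl9 levels were 89.7, 66.7, 70.4 and 28.2 CPM against 68.2, 79.4, 37.4, 49.4 and 36.8 CPM (-0.23 ± 0.29, adjusted p = 0.760). Cxcl12 levels were 14.9, 11.5, 14.7 and 39.8 CPM against 8.10, 40.4, 26.5, 10.5 and 9.62 CPM (-0.06 ± 0.49, adjusted p = 0.971). For Cxcl12 the sign was not stable, since it turned without healthy mouse 4 (0.48) and under other settings.

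**Figure D4:**
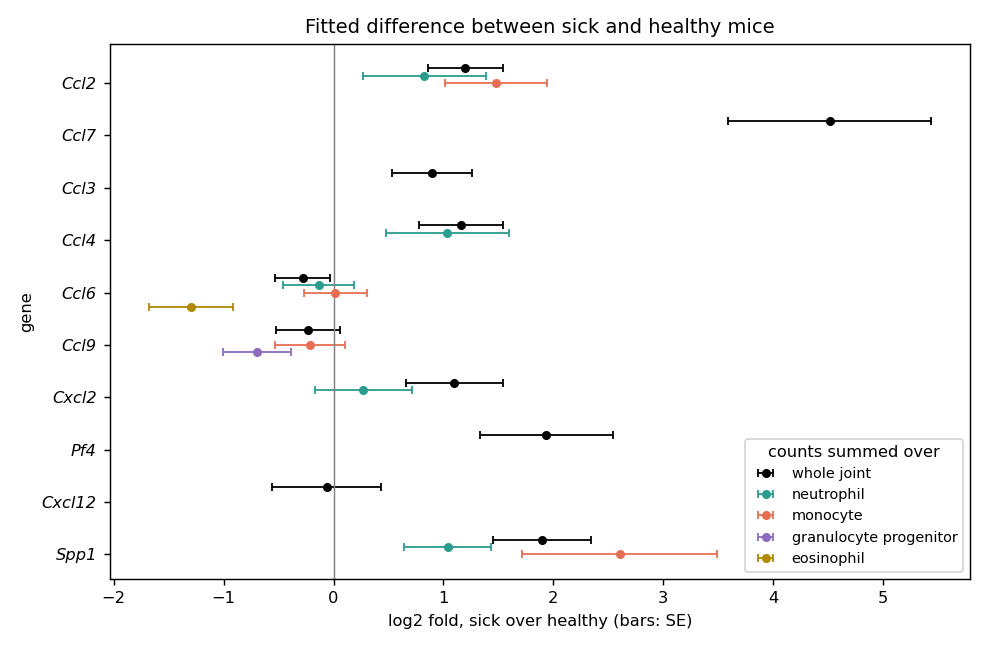
Fitted log2 folds of sick over healthy mice (x axis) for each gene, in the whole joint and within the gated types in which the gene could be tested, with bars of 1 SE. The erythroid gate is not drawn. Ccl7 in the whole joint lies farthest from 0 at 4.51, and the Ccl6 fold in eosinophils is the lowest at -1.30.

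The third question was whether the genes differed within a cell type. Only neutrophils, granulocyte progenitors, monocytes, erythroid cells and eosinophils had at least 20 cells in at least 3 mice of each group. Macrophages, mast cells or basophils, fibroblasts and osteoblasts, the leading gates of 9 of the 10 genes, did not, so no test within them was made. No gene of the 10 passed in any of these 5 gates with edgeR.

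In monocytes 4 of the 10 passed the filter on low counts. None was called, and of all genes tested 0.145% were. Ccl2 and Spp1 were higher at an unadjusted p under 0.05, beside 5.79% of all genes. Healthy mouse 2 had 16 monocytes and was left out. Ccl2 levels in monocytes were 184, 376 and 62.3 CPM in healthy mice 1, 3 and 4, and 854, 845, 307, 194 and 606 CPM in sick mice. The log2 fold was 1.48 ± 0.46 (adjusted p = 0.220, edgeR), and 2 sick mice lay within the healthy range. Ccl2 was detected in 14.1%, 13.3% and 4.17% of monocytes of these healthy mice and in 28.9%, 32.4%, 15.4%, 8.79% and 22.4% of those of sick mice, with sick mouse 5 in the healthy range. Spp1 levels in monocytes were 34.4, 125 and 0 CPM in healthy mice and 22.7, 777, 213, 286 and 136 CPM in sick mice. Its log2 fold was 2.60 ± 0.89 (adjusted p = 0.280), and without sick mouse 1, again within the healthy range, it passed (2.98, adjusted p = 0.00605). Spp1 passed under 2 of the 11 alternatives that tested it there, the other being no filter on low counts. Ccl6 (0.02 ± 0.29) and Ccl9 (-0.21 ± 0.32) had folds near 0 there. DESeq2 called none of the 4 but gave no adjusted p for Ccl2, Ccl9 and Spp1.

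In neutrophils 5 of the 10 were tested and none was called with edgeR or DESeq2, beside 0.674% of all genes with edgeR. Spp1 was higher at an unadjusted p under 0.05, beside 4.96% of all genes. Spp1 levels in neutrophils were 65.5, 74.5, 36.4 and 28.1 CPM in healthy and 32.4, 109, 122, 163 and 135 CPM in sick mice. Sick mouse 1 lay among the healthy mice and the other 4 above them, with a log2 fold of 1.04 ± 0.39 (adjusted p = 0.335). Without sick mouse 1 Spp1 passed (1.27, adjusted p = 0.0283), as it did under 2 of 20 alternatives, the other being no filter on low counts. The pooled share of neutrophils with Spp1 was 3.28% in healthy and 8.16% in sick mice, and that of erythroid cells, the background, was 1.32% and 5.64%. The background thus differed between the groups in the same direction. Ccl4 (1.03 ± 0.56, adjusted p = 0.549), Ccl2 (0.83 ± 0.56, 0.623), Cxcl2 (0.27 ± 0.44, 0.876) and Ccl6 (-0.13 ± 0.32, 0.929) did not pass. Ccl7 was under the filter there: 0 of 883 healthy neutrophils had a count (exact interval 0% to 0.417%), and 70 of 4939 sick neutrophils (1.42%) did, beside 1.78% of sick erythroid cells.

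In granulocyte progenitors Ccl9 alone was tested. It was not called, as was no gene of that gate with edgeR (0%), and was lower at an unadjusted p under 0.05, beside 5.07% of all genes. Its levels were 276, 188, 258 and 259 CPM in healthy and 160, 169, 129, 199 and 102 CPM in sick mice, with sick mouse 5 above healthy mouse 2. The log2 fold was -0.70 ± 0.31 (adjusted p = 0.459), and DESeq2 did not call it. The share of these cells with Ccl9 was 19.9% in healthy and 19.8% in sick mice. In erythroid cells Ccl6 and Cxcl2 were tested and neither was called, with or without adjustment or by DESeq2, beside 1.02% of all genes.

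In eosinophils Ccl6 alone was tested, over healthy mice 1, 2 and 3 and sick mice 1, 3, 4 and 6. Its levels were 1888, 683 and 766 CPM in healthy mice and 425, 521, 493 and 544 CPM in sick mice. Every sick mouse lay below every healthy mouse, which held for 4.45% of the 247 genes tested there. The log2 fold was -1.30 ± 0.38 and was not called (adjusted p = 0.0933), as was no gene of the gate with edgeR (0%). At an unadjusted p under 0.05 it was lower, beside 10.5% of all genes, and DESeq2 called it (adjusted p = 0.0490) among 15 of 247 genes lower. Healthy mouse 1 set much of the size, since without it the fold was -0.51 (adjusted p = 0.519). The share of eosinophils with Ccl6 was 25.9% in healthy and 24.7% in sick mice. Eosinophil markers summed to 907 to 3269 CPM in the whole joint of healthy and 415 to 1037 CPM in that of sick mice, and Ear2, Ear6 and Prg3 passed as lower among 8 tested.

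The receptors and the remaining ligands of the pathway showed no called change in the whole joint. Of 29 further chemokine ligand genes 21 were in the file and 3 passed the filter, of which none was called. Xcl1, a lymphocyte chemokine gene, was higher at an unadjusted p under 0.05 (log2 fold 0.85 ± 0.38, adjusted p = 0.345), followed by Ccl5 (0.40 ± 0.34) and Ccl25 (0.07 ± 0.35). Of 23 chemokine receptor genes 8 were tested and none was called. Cxcr2, the receptor for Cxcl2, was higher at an unadjusted p under 0.05 (0.54 ± 0.21, adjusted p = 0.283). The log2 fold was 0.33 ± 0.18 for Ccr1, 0.25 ± 0.18 for the Cxcl12 receptor gene Cxcr4 and -0.28 ± 0.33 for Cx3cr1. Beside these, 8 of 10 neutrophil markers were higher at an unadjusted p under 0.05, with none called and a median of 0.60. Of 10 osteopontin receptor genes 5 were tested and none was called: Cd44 was higher (0.44 ± 0.19, adjusted p = 0.309) and the integrin gene Itga4 lower (-0.44 ± 0.19, adjusted p = 0.309) at an unadjusted p under 0.05. Itgb1 (-0.22 ± 0.14) and Itgav (0.30 ± 0.39) were not. The medians of the 3 lists were 0.40, 0.10 and -0.02. The part of cell composition in these folds was not tested.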

How the data were processed

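Raw counts of 24296 genes in 16751 cells, 1 column per cell, were deposited by the authors, and every value was found to be a whole number of at least 0. Per the labels' protocols and the submitters' processing notes, reads were handled with bcl2fastq, Picard, STAR and the Drop-seq protocol 1.0.1, and several sequencing rounds were merged. The labels name the builds GRCh38, GRCm38 and mm9, and the build the counts rest on was not settled here. Gene symbols were matched to GENCODE M21 of GRCm38 (22894 of 24296). The 10 genes, the lists and the tests were chosen with earlier results of these data known.

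Kept were cells that had 200 or more genes and no more than 20% of counts from mitochondrial genes. The gate first written down, at least 3 distinct markers, put 8574 cells among neutrophils. At least 3 neutrophil markers were found in 81.2% of all cells and in 77.9% of the erythroid cells of the later gate. A gate chosen after this was seen gave the reported values. It placed a cell where its marker counts (at least 3, from at least 2 genes) exceeded those expected from the other cells of the same mouse at a Poisson p of 1e-04, over 10 rounds. Cells that also passed for another type with a log p more than 0.5 of the first (598) were called mixed and received no type. A further 1770 cells, some of which may be among these, lay near the limit (p from 1e-03 to 1e-05). No doublet caller was run. Of the 180 markers 3 were not among the file's genes.

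Counts were summed per mouse, and mice with under 20 cells in a gate were left out. The sums were tested with edgeR 4.0.16 (filterByExpr, TMM, quasi-likelihood, Benjamini-Hochberg at 0.05, R 4.3.3). The SE is the size of the log2 fold divided by the root of the quasi-likelihood F. On simulated data the test found 55% of genes changed 2-fold and 89% of those changed 4-fold in the joint (10323 genes). It found 52% and 81% in neutrophils (4897 genes), and 25% and 77% in monocytes (2071 genes). The changed genes were drawn at random, and each gene varied as edgeR's trend gives for its level. No library was set apart, so the rates need not hold for the 10 genes. Named were the 10 genes, up to 4 genes per list with the smallest p, and for each gene the 3 most alike over gates (at least 200 counts, no marker). Alternatives were DESeq2 1.42.0, RLE size factors, no filter, each mouse left out, healthy mice 2, 3 and 4 left out, and the mouse number as a block. Others were cells with at least 400 genes, gated cells only, and scaling without haemoglobin, mitochondrial and ribosomal RNA-type genes. The rest were other gates and cell minimums, and sums without the macrophage and fibroblast or the megakaryocyte gates. These 2 sums and a gate at a Poisson p of 1e-06 were added with the data in view. Further tools were Python 3.11.15, numpy 2.4.6, scipy 1.17.1, pandas 2.3.3 and matplotlib 3.10.9.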

Additional observations from a re-analysis of the deposited data

Results flagged for a closer look

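Within 37 groups of 4 or 5 mice whose levels were compared, 3 held a mouse far from the rest by Dixon's criterion, which chance alone meets in about 1 in 20 groups. Ccl7 in the whole joint was 87.7 CPM in sick mouse 3, against 10.5 to 21.4 CPM in the other sick mice. Ccl2 in neutrophils was 65.4 CPM in sick mouse 3, against 19.3 to 22.9 CPM in the other sick mice. Cxcl12 in the whole joint was 39.8 CPM in healthy mouse 4, against 11.5 to 14.9 CPM in the other healthy mice.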

How the results depend on the processing

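Whole joint. The number of the 10 genes called higher was 1, beside 66 of all 10323 genes tested. It became 3 with DESeq2 (158 of 10323 genes), 5 without a filter on low counts (210 of 24296) and 2 over gated cells only (51 of 9180). With the replicate block it was 2 (43 of 10323), with Ccl2 added (edgeR, adjusted p = 0.0498). It was 0 with cells of at least 400 genes (38 of 9520) and without the macrophage and fibroblast gates (63 of 10324). With each mouse left out it ran from 0 to 3. All genes called were 97, and became 254 with DESeq2, 282 without the filter, 12 without healthy mice 2, 3 and 4 and 51 with cells of at least 400 genes, and 53 to 255 with a mouse left out. Ccl7 kept its direction under all 19 alternatives (3.48 to 8.64) and passed under 12, the other failures being 8.64 (adjusted p = 0.113) with at least 400 genes and those given above. Signs turned for Ccl9 with the block (0.020), and for Cxcl12 without the filter (0.028), with the block (0.0094), without healthy mice 2, 3 and 4 (0.40), over gated cells (0.026) and with at least 400 genes (0.41). With a mouse left out Ccl6 ran from -0.46 to 0.10 and Cxcl12 from -0.63 to 0.48. The cause was not tested.

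Gates. Without the filter 2 of the 10 genes were called higher in neutrophils (102 of all 22666 genes), 3 in monocytes (24 of 17441), 1 in granulocyte progenitors (23 of 18999) and 1 in erythroid cells (70 of 20553). In monocytes the block called 1 higher (Ccl2, 1.81, edgeR adjusted p = 0.0426), beside 3 of all 2071 genes. With a mouse left out 0 to 1 were called higher in neutrophils and in monocytes. The 1 came without sick mouse 1, beside 18 of 4620 genes in neutrophils and 18 of 1690 in monocytes. Ccl6 in eosinophils was called lower (1 gene) with DESeq2 and without healthy mice 2, 3 and 4 (-1.95). Signs turned for Ccl6 in neutrophils without the filter (0.10), with the block (0.14), with at least 400 genes (0.011) and with a mouse left out (-0.39 to 0.74), and for Cxcl2 there without healthy mice 2, 3 and 4 (-0.61). In monocytes they turned for Ccl6 without those mice (-0.082), with at least 10 cells per mouse (-0.12), with the 2-marker gate (-0.25) and with a mouse left out (-0.18 to 0.15), and for Ccl9 without the filter (0.059) and with a mouse left out (-0.40 to 0.13). All genes called in neutrophils were 33, and 111, 101 and 89 with gates of at least 3, 2 and 4 markers. The leading gate stayed for 4 of 10 genes with gates of at least 3 and at least 2 markers, and for 8 to 10 with a mouse left out. Mice with the same number had correlations of 0.17, -0.05 and 0.07, within the -0.20 to 0.22 of mice with different numbers. So few values cannot show whether mice were paired. The block takes the fold from mice 1, 3 and 4, whose numbers occur in both groups, and changed no call other than those named.

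Intervals of shares are wide in gates of few cells, from 5 marrow stromal cells to 90 mast cells or basophils.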

Other observations

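Several further chemokine ligand genes were too low for the test, and their values were looked at after the others. Cxcl1, a neutrophil-attracting chemokine gene, had 253 counts in sick mouse 3, 0 to 26 in the other sick mice and 0 to 8 in healthy mice. Ccl8, a CC chemokine gene among those that led the macrophage gate, had 196 counts in sick mouse 3, 1 to 6 in the other sick mice, 6 in healthy mouse 3 and 0 in the other healthy mice. Cxcl13 had 76 counts in sick mouse 3, 1 in sick mouse 6 and 0 in the other 7 mice. Ccl12 was listed at 0 in all healthy mice, with 8, 50 and 12 counts in sick mice 1, 3 and 6 and 0 in sick mice 4 and 5. Ppbp, which like Pf4 is a platelet granule gene, had 116 counts in sick mouse 6 and 0 to 4 in every other mouse.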
